A study of Homo sapiens with 12 samples.

Results

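CXCL1, CXCL2, CXCL3, CXCL5 and CXCL8 (interleukin-8), the neutrophil-attracting CXC chemokines often counted as part of the secretome of senescent cells, were followed across a senescence experiment in renal tubular cells. The 5 genes were chosen by name and matched by symbol to the Ensembl identifiers of the count tables, so they are 5 of the 40649 genes listed. All 5 were found, and 4 of them passed the filter on low counts.

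Bulk RNA-seq was available for 12 libraries of HK-2, an established line of immortalised human proximal tubule cells, in 3 groups of 4. ShNC cells carried a control short hairpin RNA and had no oxidant, ShNC_H2O2 cells carried the same hairpin and received hydrogen peroxide (H2O2, an oxidant) at 150 µM for 48 h, and the libraries labelled Yap1 knockdown (YAP1kd_H2O2) received the same H2O2. YAP1 is a transcriptional co-activator held in check by the Hippo kinases, and the series asks how its knockdown bears on oxidant-driven senescence. None of the 12 libraries held knockdown cells without H2O2. An effect of the hairpin present without the oxidant therefore cannot be told apart from one that needs it. The labels name neither the hairpin sequences nor separate cultures, and p-values therefore measure only the spread between these libraries, which may be technical.

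CXC chemokines of this type carry a Glu-Leu-Arg motif before their first cysteines and draw neutrophils through the receptors CXCR1 and CXCR2. Their genes sit side by side in one cluster, and their transcription in epithelium is classically switched on by NF-kB below interleukin-1, tumour necrosis factor and Toll-like receptors, helped at CXCL8 by AP-1 and C/EBP factors. Their messages are short-lived because proteins that bind AU-rich elements direct their decay. In senescent cells they are among the best known inflammatory secreted factors.

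The promoter of each gene is shown because one motif recurs in all 5 in nearly the same place, although the transcripts moved apart in these libraries. Each line is the 100 bases from 150 to 51 bases before the RefSeq start (assembly GRCh38.p14, chromosome 4), written 5′ to 3′ on the gene's own strand. Capitals mark the kappaB core GGAATTTCC and, in CXCL8 alone, the AP-1 motif.
CXCL8 (chr4:73740419-73740518, plus strand): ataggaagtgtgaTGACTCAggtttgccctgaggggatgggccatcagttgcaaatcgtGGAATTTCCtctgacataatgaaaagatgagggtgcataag
CXCL1 (chr4:73869243-73869342, plus strand): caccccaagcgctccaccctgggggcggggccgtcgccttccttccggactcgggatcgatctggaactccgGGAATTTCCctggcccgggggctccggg
CXCL5 (chr4:73998728-73998827, minus strand): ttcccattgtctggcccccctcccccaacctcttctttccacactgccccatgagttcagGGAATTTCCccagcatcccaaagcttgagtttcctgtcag
CXCL3 (chr4:74038740-74038839, minus strand): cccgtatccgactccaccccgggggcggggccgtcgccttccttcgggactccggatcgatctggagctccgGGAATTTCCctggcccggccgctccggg
CXCL2 (chr4:74099246-74099345, minus strand): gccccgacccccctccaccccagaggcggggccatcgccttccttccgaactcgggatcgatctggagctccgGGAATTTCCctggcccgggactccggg

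The kappaB core was searched on both strands over the 250 bases before each start. It began 91 bases before the start of CXCL8, 90 before that of CXCL5, 78 before those of CXCL1 and CXCL3, and 77 before that of CXCL2, always on the gene's strand. Only 145 of 35116 RefSeq promoters (0.413%) held it. Among the other CXC ligands it was found in 3 of 11 promoters (CXCL6, CXCL10 and CXCL11), and among the CC, XC and CX3C chemokines in 0 of 21. The AP-1 letters TGANTCA were present in CXCL8, 137 bases before the start, and in 6.573% of all promoters. The TEAD letters CATTCC, bound by the partners of YAP1, were in none of these 5 windows and in 11.889% of all promoters. A match describes letters in a window and is not evidence of binding.

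In the GENCODE release 29 annotation of GRCh38 the 5 genes are protein-coding and lie within 1 stretch of chromosome 4. CXCL8 (ENSG00000169429, chr4:73740506-73743716) and CXCL1 (ENSG00000163739, chr4:73869393-73871242) are on the plus strand. CXCL5 (ENSG00000163735, chr4:73995642-73998779), CXCL3 (ENSG00000163734, chr4:74036589-74038807) and CXCL2 (ENSG00000081041, chr4:74097035-74099293) are on the minus strand. No exon base of the 5 overlaps another gene. The paralogs do share sequence: of all 50-base windows in their transcripts, 12.484% of those of CXCL2, 6.01% of CXCL3 and 4.812% of CXCL1 were also found in another of these 3 genes. At 100 bases CXCL2 and CXCL3 shared 4.997% and 3.274% of their windows with each other, and CXCL1 shared 0. CXCL8 shared none at either length.

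Total counts ranged from 30789997 to 46582873 per library, so the detection floor of 3 counts corresponded to 0.0644 to 0.0974 CPM (counts scaled to library size). This floor and the ranges and sums of cell type markers were scaled by total counts alone. Other CPM of tested genes and members used TMM factors. The targeted gene bore out its label only in part. YAP1 stood at 123.7 to 140.5 CPM in ShNC, 151 to 163.5 CPM in ShNC_H2O2 and 110.9 to 136 CPM in the libraries labelled knockdown. The knockdown libraries were lower than ShNC_H2O2 (log2 fold change -0.29 ± 0.07 SE, edgeR adjusted p = 0.00346) but not than ShNC (-0.05 ± 0.07, adjusted p = 0.636), so they are called the libraries labelled YAP1 knockdown. The first of these calls was lost when the shift of the 51 genes around YAP1 was removed (-0.17, edgeR adjusted p = 0.0629). That shift was -0.11, from neighbour medians taken for each group against ShNC. Taken directly between YAP1kd_H2O2 and ShNC_H2O2 the neighbours' median was -0.06, which left -0.23 for YAP1. This last value was not tested. Mitochondrially encoded genes took 13.9% of counts in ShNC replicate 4 and 11.3% in YAP1kd_H2O2 replicate 3, against 4.54% to 5.64% in the other 10 libraries. Members' results are given again without those 2 libraries. The extraction protocol speaks of kidney tissue, while the other labels name HK-2. All 12 renal epithelial markers had at least 1 CPM. Markers of differentiated proximal tubule were mixed: LRP2, CUBN, AQP1 and ANPEP peaked at or below 0.477 CPM and SLC22A8 was at 0, whereas the brush-border enzymes DPP4 (126 to 269 CPM), MME (26.1 to 45.3 CPM) and GGT1 (1.29 to 7.49 CPM) were detected.

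H2O2 raised CXCL8 and CXCL3 and lowered CXCL2 and CXCL5, so the chemokines did not move as a block. CXCL8 reached 3.25 times and CXCL3 2.88 times its ShNC level, while CXCL2 fell to 0.679 and CXCL5 to 0.201 of it. In the libraries labelled YAP1 knockdown the picture turned over only in part: against ShNC_H2O2, CXCL8 was at 0.499, CXCL3 at 0.785 and CXCL2 at 0.805 of the level, and CXCL5 was 6.01 times higher. CXCL1 was at the edge of detection in every group.

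The background is large in these data. With an edgeR adjusted p under 0.05 as the call, 46.6% of the 19268 tested genes were called between ShNC_H2O2 and ShNC (23.9% higher and 22.6% lower), and the CPM of the groups did not overlap for 48.0%. Of the 4 tested members all 4 were called and did not overlap, 2 higher and 2 lower. Between YAP1kd_H2O2 and ShNC_H2O2, 43.0% of genes were called (22.0% higher, 21.0% lower) and 45.2% did not overlap. There again all 4 tested members were called without overlap, 1 higher and 3 lower. Between YAP1kd_H2O2 and ShNC the shares were 32.5% called (17.4% higher, 15.1% lower) and 29.7% not overlapping, and 3 of the 4 members were called, 2 higher and 1 lower. The median log2 fold change of the 4 members was 0.48, -0.33 and 0.48 in these comparisons, beside 0.004, -0.004 and 0.0017 for all tested genes. Each pair of comparisons shares a group of libraries, so they are not independent of one another.

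**Figure D1:**
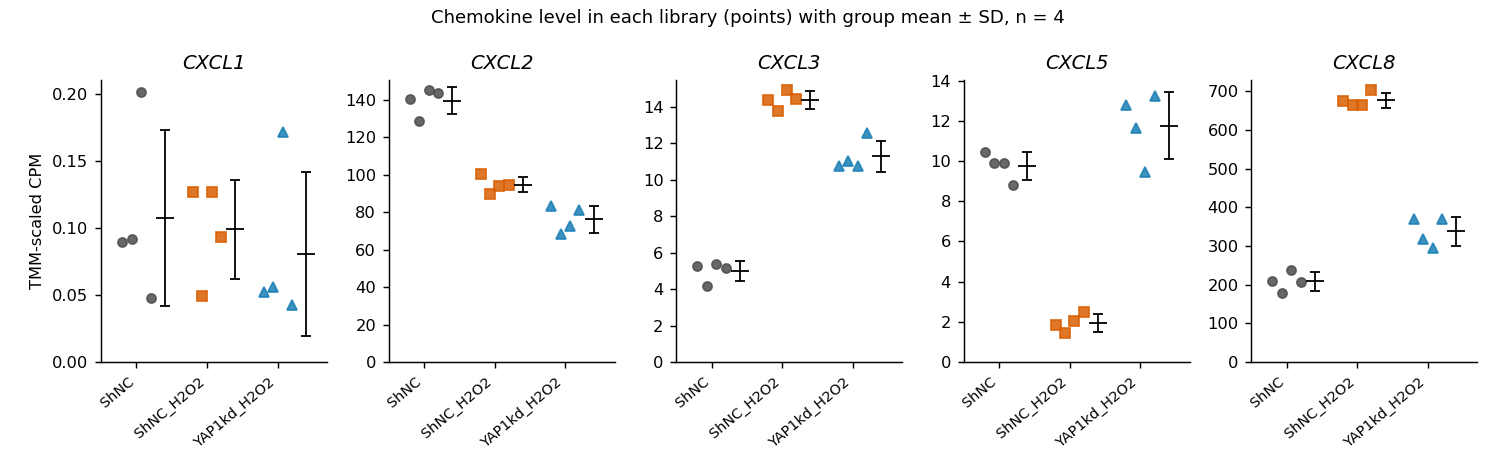
Level of each chemokine in every library, in TMM-scaled CPM on linear axes that start at 0 and differ between panels; points are libraries and black bars give the mean ± SD of the 4 libraries of a group. CXCL8 and CXCL3 are highest in ShNC_H2O2, CXCL2 is highest in ShNC, CXCL5 is low only in ShNC_H2O2, and CXCL1 stays at or below 0.201 CPM.

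CXCL8, the prototype neutrophil chemokine and a high-affinity ligand of both CXCR1 and CXCR2, rose the most with H2O2. In ShNC replicates 1 to 4 it measured 209.7, 179, 237 and 208 CPM. In ShNC_H2O2 it measured 675, 663, 664 and 703 CPM, and in YAP1kd_H2O2 369, 319, 294 and 369 CPM. The groups did not overlap: every ShNC_H2O2 library was far above the rest, and every YAP1kd_H2O2 library lay between the other groups. Means were 208.3 ± 23.8, 676 ± 18.9 and 338 ± 38 CPM (SD, n = 4 each). The rise with H2O2 was 1.70 ± 0.09 on the log2 scale (SE, edgeR adjusted p = 4.72e-10). The libraries labelled YAP1 knockdown were lower than ShNC_H2O2 by a log2 fold change of -1.002 ± 0.09 (edgeR adjusted p = 2.44e-07) and still above ShNC by 0.70 ± 0.09 (edgeR adjusted p = 2e-05).

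CXCL3 (GRO-gamma), a ligand of CXCR2, had the same order of groups as CXCL8. ShNC libraries held 5.29, 4.17, 5.38 and 5.14 CPM. Those of ShNC_H2O2 held 14.4, 13.8, 14.96 and 14.4 CPM, and those of YAP1kd_H2O2 10.7, 11.1, 10.8 and 12.6 CPM. No group overlapped another, and ShNC_H2O2 was highest. The log2 fold change with H2O2 was 1.53 ± 0.10 (edgeR adjusted p = 5.03e-09). The drop in the libraries labelled YAP1 knockdown was -0.35 ± 0.10 (edgeR adjusted p = 0.00771), which left CXCL3 above ShNC by 1.18 ± 0.10 (edgeR adjusted p = 3.36e-07). With the shift of neighbouring genes, taken for each group against ShNC, removed, the drop was -0.52 (edgeR adjusted p = 0.000429). Subtracting instead the neighbours' median taken directly between YAP1kd_H2O2 and ShNC_H2O2 left -0.33, which was not tested.

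CXCL2 (GRO-beta, also a CXCR2 ligand) stepped down from group to group. ShNC libraries measured 140.7, 129, 145 and 143.5 CPM, ShNC_H2O2 libraries 100.3, 89.99, 94.2 and 94.8 CPM, and YAP1kd_H2O2 libraries 83.4, 68.1, 72.7 and 81.0 CPM. The 3 groups did not overlap, and the libraries labelled YAP1 knockdown were lowest. With H2O2 the log2 fold change was -0.56 ± 0.07 (edgeR adjusted p = 9.21e-06). The libraries labelled YAP1 knockdown were lower again by -0.31 ± 0.07 (edgeR adjusted p = 0.00214), which gave -0.87 ± 0.07 against ShNC (edgeR adjusted p = 2.42e-07). The second step was -0.49 with the shift of neighbouring genes, taken for each group against ShNC, removed (edgeR adjusted p = 5.81e-05). Subtracting instead the neighbours' median taken directly between YAP1kd_H2O2 and ShNC_H2O2 left -0.32, which was not tested.

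CXCL5 (ENA-78, an epithelial chemokine that acts through CXCR2) made the widest swing of the 5. It measured 10.4, 9.92, 9.91 and 8.80 CPM in ShNC, where 351 to 433 reads were counted. In ShNC_H2O2 it measured 1.85, 1.43, 2.06 and 2.49 CPM, from 58 to 107 reads, and in YAP1kd_H2O2 12.8, 11.6, 9.46 and 13.2 CPM. All 4 ShNC_H2O2 libraries were below all others, while YAP1kd_H2O2 overlapped ShNC. The log2 fold change was -2.32 ± 0.16 with H2O2 (edgeR adjusted p = 7.2e-09) and 2.59 ± 0.16 in the libraries labelled YAP1 knockdown against ShNC_H2O2 (edgeR adjusted p = 3.95e-09). Against ShNC it was 0.27 ± 0.14, with a 95% interval from -0.02 to 0.57 (edgeR adjusted p = 0.152), so a difference up to about that size was not resolved. That last call depended on the libraries used: with both high-mitochondrial libraries left out it was 0.31 (edgeR adjusted p = 0.0199), and with only YAP1kd_H2O2 replicate 3 left out 0.36 (edgeR adjusted p = 0.0407).

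CXCL1 (GRO-alpha), the closest relative of CXCL2 and CXCL3, was all but absent. Replicates 1 to 4 gave 3, 4, 8 and 2 reads in ShNC, 5, 2, 4 and 4 in ShNC_H2O2, and 2, 2, 6 and 2 in YAP1kd_H2O2, around the floor of 3 reads. Group means were 0.107 ± 0.0657, 0.0990 ± 0.0368 and 0.0805 ± 0.061 CPM, with overlap throughout. It did not pass the filter on low counts. Fitted without that filter, its log2 fold changes had intervals from -1.78 to 1.52, -2.01 to 1.40 and -2.12 to 1.25 in the 3 comparisons, in the order above (edgeR adjusted p = 0.987, 0.888 and 0.832), so a difference was not detectable at this depth. CXCL2 had 2445 to 6037 reads in the same libraries.

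**Figure D2:**
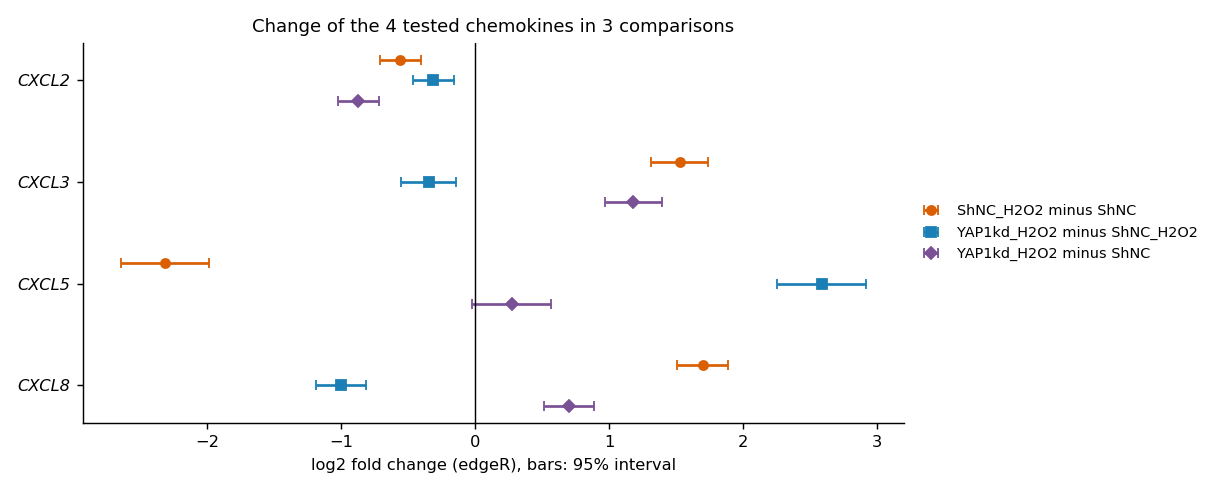
Log2 fold changes of the 4 tested chemokines from edgeR on the horizontal axis, with 95% intervals as bars, for the 3 comparisons. The bars are clear of 0 except for CXCL5 between YAP1kd_H2O2 and ShNC, and CXCL5 points the opposite way to CXCL8 in the first and second comparisons.

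Each member and comparison was also tested by exact permutation of log2(CPM + 0.5), on both sides, over the 70 ways to split 8 libraries into 4 and 4. This permutation test gave p = 0.0286, the smallest value it allows, for CXCL2, CXCL3 and CXCL8 in all 3 comparisons and for CXCL5 in both that involve ShNC_H2O2. Adjusted over the 15 tests this was 0.039 by the exact permutation test. For CXCL5 between YAP1kd_H2O2 and ShNC the exact p was 0.114, and for CXCL1 it was 0.943, 0.571 and 0.514. Leaving out the 2 high-mitochondrial libraries, CXCL2, CXCL3 and CXCL8 stayed called in the same direction in every comparison, as did CXCL5 in both that involve ShNC_H2O2. Because the samples are bulk, fewer cells making a transcript and less transcript per cell cannot be told apart.

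Whether the members changed differently from one another was tested on ratios within a library, which do not depend on library scaling. Of the 10 pairs of members, 9 differed between ShNC_H2O2 and ShNC, 6 between YAP1kd_H2O2 and ShNC_H2O2, and 6 between YAP1kd_H2O2 and ShNC (exact permutation p = 0.0286 for each pair that passed, 0.0409 adjusted over the 30 tests). Pairs with CXCL1 rest on its 2 to 8 reads per library. All 6 pairs of the other members passed in both comparisons with ShNC, and all but CXCL2 against CXCL3 passed between YAP1kd_H2O2 and ShNC_H2O2. The widest was CXCL5 against CXCL8, a log2 ratio of -4.41 ± 0.20 (SD, n = 4) in ShNC, -8.46 ± 0.31 in ShNC_H2O2 and -4.85 ± 0.08 in YAP1kd_H2O2. That is a shift of -4.05 with H2O2 and of 3.61 in the libraries labelled YAP1 knockdown.

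The closely related CXCL2 and CXCL3 parted under H2O2. Their log2 ratio went from 4.81 ± 0.10 in ShNC to 2.72 ± 0.06 in ShNC_H2O2, a shift of -2.09 (exact permutation p = 0.0286, 0.0409 adjusted). It was 2.76 ± 0.14 in YAP1kd_H2O2, a further shift of 0.04 that was smaller than the spread between libraries (exact permutation p = 0.743). CXCL3 and CXCL8, which rose together, did so to slightly different degrees, with a shift of -0.17 in their log2 ratio with H2O2 and of 0.66 in the libraries labelled YAP1 knockdown (exact permutation p = 0.0286 for each). Since reads from shared stretches could be assigned to either paralog, CXCL1, CXCL2 and CXCL3 were also counted as 1 feature. That sum was 144.7 ± 7.9, 109 ± 4.49 and 87.7 ± 7.41 CPM in ShNC, ShNC_H2O2 and YAP1kd_H2O2, with log2 fold changes of -0.40 ± 0.07 (edgeR adjusted p = 0.000154) with H2O2 and -0.32 ± 0.07 (edgeR adjusted p = 0.00142) in the libraries labelled YAP1 knockdown against ShNC_H2O2. The latter was -0.49 (edgeR adjusted p = 3.74e-05) with the shift of neighbouring genes, taken for each group against ShNC, removed. The sum follows CXCL2, which supplied most of its reads, and conceals the rise of CXCL3.

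Per kilobase of exon, which allows levels of different genes to be compared, CXCL2 and CXCL8 were level in untreated cells. CXCL2 stood at 93.1 ± 4.89 and CXCL8 at 91.6 ± 10.5 CPM per kb in ShNC, a gap within their spread. CXCL5 followed at 3.85 ± 0.271, CXCL3 at 2.25 ± 0.252 and CXCL1 at 0.0829 ± 0.0507 CPM per kb. In ShNC_H2O2 the order was CXCL8 at 297 ± 8.3, CXCL2 at 63.2 ± 2.82, CXCL3 at 6.48 ± 0.218, CXCL5 at 0.771 ± 0.174 and CXCL1 at 0.0764 ± 0.0284 CPM per kb.

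In YAP1kd_H2O2 CXCL8 (149 ± 16.7 CPM per kb) remained above CXCL2 (50.9 ± 4.75), and CXCL3 (5.09 ± 0.389) and CXCL5 (4.64 ± 0.661) did not differ beyond their spread per kilobase of exon. The order of CXCL3 and CXCL5 depended on the length used: per kilobase of the longest coding transcript, which is 1075 bases for CXCL3 against 2219 exon bases in all, CXCL3 was at 4.65 ± 0.52 and CXCL5 at 3.85 ± 0.271 in ShNC. On that scale they were apart in YAP1kd_H2O2 as well, with CXCL3 at 10.5 ± 0.803 and CXCL5 at 4.64 ± 0.661.

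The make-up of the pool shifted with these changes. CXCL8 made up 47.9% ± 1.72 of the summed CPM per kb of the 5 genes in ShNC, 80.8% ± 0.669 in ShNC_H2O2 and 71.0% ± 1.12 in YAP1kd_H2O2 (SD, n = 4). CXCL2 went from 48.9% ± 1.64 to 17.2% ± 0.641 and 24.4% ± 1.19. The shares of CXCL5 were 2.03%, 0.209% and 2.21%, and those of CXCL3 1.18%, 1.76% and 2.44%. In plain CPM the 5 genes summed to 363 ± 31.2, 787.5 ± 20.9 and 437 ± 46.1, so the total was highest in ShNC_H2O2 although CXCL2 and CXCL5 were lower there than in ShNC.

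**Figure D3:**
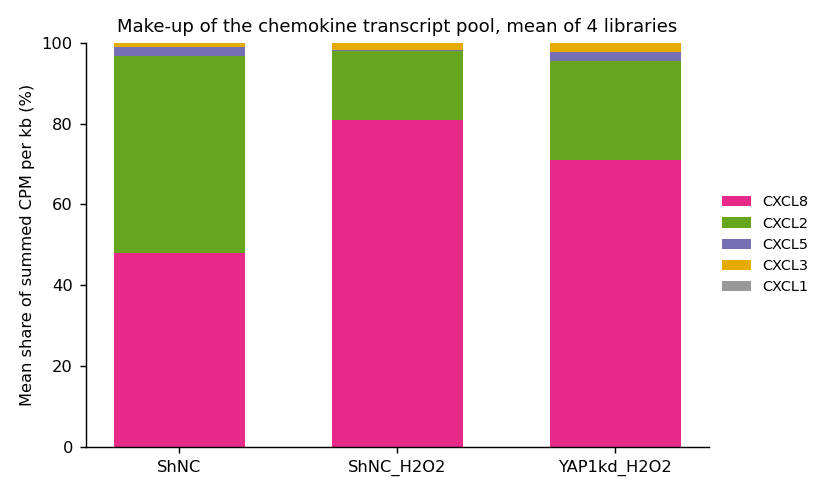
Mean share of each chemokine in the summed CPM per kb of exon of the 5 genes, in percent, as stacked bars of 4 libraries per group. CXCL8 and CXCL2 each hold nearly equal parts in ShNC, and CXCL8 holds 80.8% in ShNC_H2O2; CXCL1 is too small to be seen.

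Across the 12 libraries, which fall into 3 groups and so trace mainly the group means, CXCL3 and CXCL8 were the most alike of the tested members, with a Pearson r of 0.915 of log2(CPM + 0.5). CXCL5 and CXCL8 ran opposite at -0.832, CXCL2 and CXCL3 at -0.78, and CXCL2 and CXCL5 had an r of 0.072. Among the 11401 genes compared, those closest to CXCL8 were LRRC1 (r = 0.988), SEMA3C (0.988), a secreted semaphorin, and the cytokine-receptor kinase JAK2 (0.988). SEMA3C stood at 60.6, 290.0 and 126 CPM in ShNC, ShNC_H2O2 and YAP1kd_H2O2. For CXCL5 they were GJA1 (0.992), which encodes the gap junction protein connexin 43, CMSS1 (0.991) and the polarity gene PARD6B (0.989), and GJA1 measured 48.9, 14.8 and 52.5 CPM. SHISA2 (0.99), TANC1 (0.99) and the BH3-only gene HRK (0.989) were closest to CXCL3, and CASP6 (0.985), the sterol-regulated INSIG1 (0.98) and the chromatin remodeller HELLS (0.98) to CXCL2. These values describe shared order across groups and carry no test.

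The genes around the cluster did not move with it as a block. Within 1 Mb on either side 15 further genes were tested. AREG, the EGF receptor ligand amphiregulin, fell and rose as CXCL5 did: 310 CPM in ShNC, 26.4 in ShNC_H2O2 and 146 in YAP1kd_H2O2, with log2 fold changes of -3.56 ± 0.10 (edgeR adjusted p = 4.83e-13) and 2.47 ± 0.10 (edgeR adjusted p = 3.51e-11). Unlike CXCL5 it remained below ShNC in the libraries labelled YAP1 knockdown (-1.08, edgeR adjusted p = 2.89e-07). Its neighbour EREG, another ligand of that receptor, was not called in any of the 3 comparisons. RASSF6, the nearest tested gene on the CXCL8 side, rose with H2O2 (0.68, edgeR adjusted p = 2.12e-06) and was higher again in the libraries labelled YAP1 knockdown (0.59, edgeR adjusted p = 1.11e-05).

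AFP fell and rose like CXCL5 but at no more than 1.05 CPM in any group mean. MTHFD2L, next to CXCL2, rose with H2O2 (0.39, edgeR adjusted p = 0.0114), as did PARM1 (0.93, edgeR adjusted p = 0.00253). PARM1 was then lower in YAP1kd_H2O2 than in ShNC_H2O2 (-0.63, edgeR adjusted p = 0.0285). That is the order of groups seen for CXCL8, at group means of 0.973 to 1.87 CPM. COX18 was lower between YAP1kd_H2O2 and ShNC (-0.33, edgeR adjusted p = 0.00575). COX18 was also called with H2O2 when both high-mitochondrial libraries were left out (-0.19, edgeR adjusted p = 0.0179), and between YAP1kd_H2O2 and ShNC_H2O2 among genes of at least 5 CPM (-0.20, edgeR adjusted p = 0.0429). ANKRD17, BTC and EPGN were not called with all 12 libraries. Without both high-mitochondrial libraries ANKRD17 was higher in YAP1kd_H2O2 than in ShNC (0.13, edgeR adjusted p = 0.00277) and than in ShNC_H2O2 (0.08, edgeR adjusted p = 0.0382), and BTC than in ShNC_H2O2 (0.19, edgeR adjusted p = 0.0272). ANKRD17 was also called against ShNC without ShNC replicate 4 (0.25, edgeR adjusted p = 0.0407).

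The 51 genes nearest each tested member by position had a median log2 fold change against ShNC of -0.10 to -0.11 in ShNC_H2O2 and of 0.05 to 0.08 in YAP1kd_H2O2. Subtracting these medians group by group took 0.17 to 0.19 from the difference between YAP1kd_H2O2 and ShNC_H2O2, and no member's call changed. The median of the same genes taken directly between YAP1kd_H2O2 and ShNC_H2O2 was -0.02 to 0.01.

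**Figure D4:**
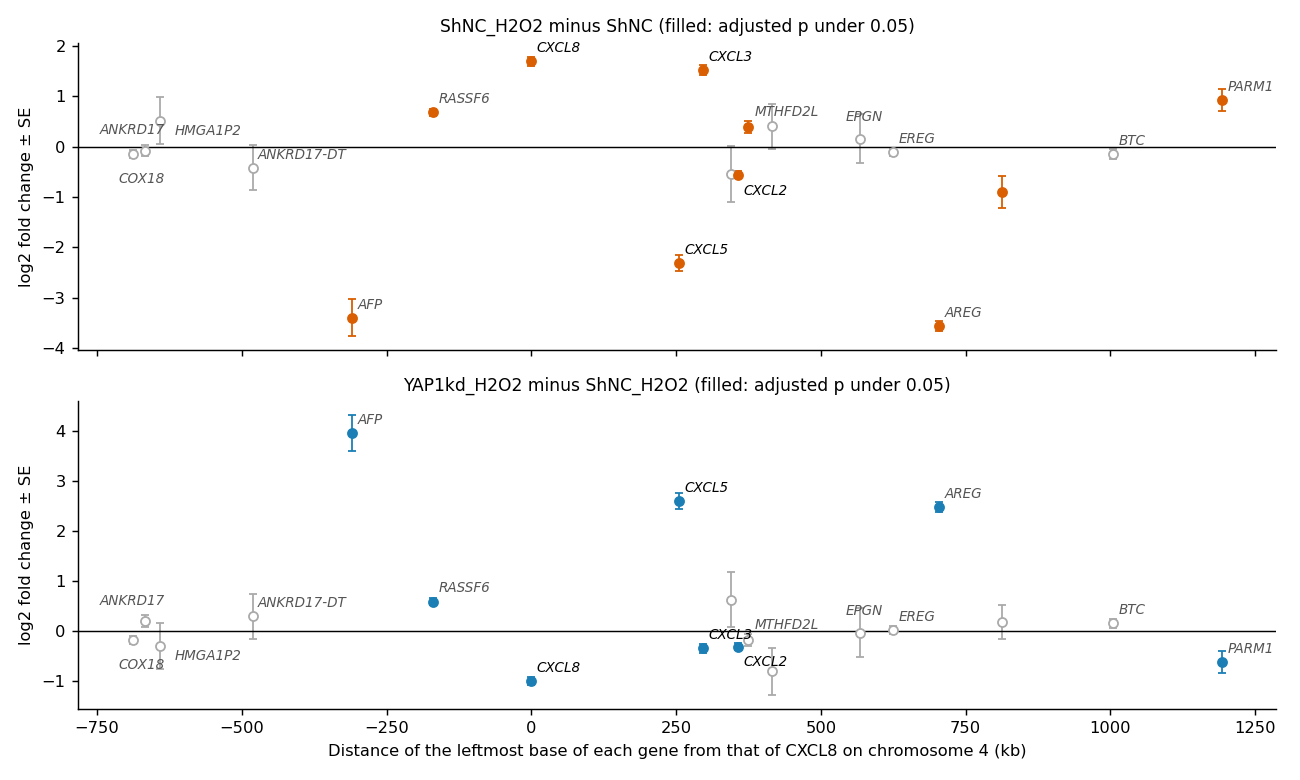
Log2 fold change ± SE (edgeR) of tested genes within 1 Mb of the chemokine cluster, against the distance in kb of each gene's leftmost base from that of CXCL8; filled points have an adjusted p under 0.05 and unlabelled points have no symbol. Called and uncalled genes are interspersed, and neighbours such as CXCL5 and CXCL3 lie on opposite sides of 0 in both panels.

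Other chemokine ligands were scarce. Of 9 other CXC ligands matched to the tables only CXCL16, a transmembrane chemokine, was tested. It was lower in ShNC_H2O2 than in ShNC (20.7 ± 4.91 against 11.7 ± 1.54 CPM, log2 fold change -0.82 ± 0.20, edgeR adjusted p = 0.00388) and was not called between YAP1kd_H2O2 and ShNC_H2O2. Of 14 CC, XC and CX3C ligands matched, 4 were tested, of which 1 rose and 2 fell with H2O2 and 3 rose in the libraries labelled YAP1 knockdown against ShNC_H2O2 (median log2 fold changes -1.08 and 1.01). Over all tested genes 46.6% and 43.0% were called in these comparisons. CCL2 and CCL20 fell and rose like CXCL5, but below 1 CPM in every group mean, and the fall of CCL2 with H2O2 was lost without ShNC replicate 2 or 4 or ShNC_H2O2 replicate 1 or 4 (adjusted p = 0.0592 to 0.0776). CX3CL1 rose in both steps, by 0.65 and 0.78 on the log2 scale.

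Messages of the receptors of these chemokines were not detected. CXCR1 had 0 reads in all 12 libraries, and CXCR2 and the scavenger ACKR1 had at most 2 reads in any one, below the floor. Of 23 chemokine receptors 7 were tested, most at low counts. With H2O2 3 were higher and 1 lower, and in the libraries labelled YAP1 knockdown 4 were higher and 1 lower than in ShNC_H2O2 (median 0.17 and 1.13). The second count was 2 and 1 without YAP1kd_H2O2 replicate 3 or ShNC_H2O2 replicate 1, and 2 and 0 without ShNC_H2O2 replicate 4. Over all tested genes 46.6% and 43.0% were called in these comparisons.

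Upstream, the ligands, receptors, adaptors and kinases that feed NF-kB leaned the opposite way to CXCL8 and the same way as CXCL5. Their part in the changes of either was not tested. Of 24 tested genes of interleukin-1, tumour necrosis factor, interleukin-17 and Toll-like signalling, 4 rose and 9 fell with H2O2 (median -0.23), and 10 rose and 2 fell in the libraries labelled YAP1 knockdown against ShNC_H2O2 (median 0.21). The rises with H2O2 were 2 without ShNC replicate 3 or ShNC_H2O2 replicate 2 or 4. The second count was 8 and 4 without YAP1kd_H2O2 replicate 3, 13 and 4 without ShNC replicate 4, and 13 and 5 without both of these libraries. Over all tested genes 46.6% were called with H2O2 (23.9% higher, 22.6% lower) and 43.0% in the second comparison (22.0% higher, 21.0% lower). TLR4, the endotoxin receptor, went -1.23 ± 0.14 (edgeR adjusted p = 3.55e-06) and then 0.93 ± 0.14 (edgeR adjusted p = 8.97e-05). IL1A, the membrane-bound alarmin that drives much of the senescent secretome, fell by 1.45 and rose by 1.43 on the log2 scale (edgeR adjusted p = 0.0045 and 0.00586), but below 1 CPM in every group mean. IL1B did not pass the filter on low counts. IRAK2, a kinase of the interleukin-1 receptor, rose with H2O2 by 0.84 ± 0.10 (edgeR adjusted p = 6.81e-06).

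Of 13 NF-kB subunits and kinases, 1 rose and 2 fell with H2O2 (median -0.002), and 3 rose and 1 fell in the libraries labelled YAP1 knockdown (median 0.19), where 46.6% and 43.0% of all tested genes were called. Without ShNC replicate 4 the second count was 7 and 1, and without both high-mitochondrial libraries the counts were 2 and 4, then 10 and 1. RELA, the activating subunit p65 (57.9 ± 1.41 to 69.6 ± 13.4 CPM), was not called with all 12 libraries in any comparison, but its call depended on the settings. It was lower with H2O2 and higher in the next step without both high-mitochondrial libraries (-0.14 and 0.12, edgeR adjusted p = 0.00462 and 0.0161) and once the median of its neighbours was subtracted (-0.35 and 0.35, edgeR adjusted p = 0.0138 and 0.0153). Leaving out YAP1kd_H2O2 replicate 3 gave the first call alone (edgeR adjusted p = 0.0158), and leaving out ShNC replicate 4 or YAP1kd_H2O2 replicate 2 or 4 the second alone (edgeR adjusted p = 0.0208 to 0.0435). NFKB1, which encodes p105 and p50, was -0.56 ± 0.06 with H2O2 (edgeR adjusted p = 1e-06) and 0.33 ± 0.06 in the next step (edgeR adjusted p = 0.000276). MAP3K14 (NIK, the kinase of the non-canonical pathway) had the order of groups of CXCL8, with 1.40 ± 0.07 (edgeR adjusted p = 4.5e-10) and -1.30 ± 0.07 (edgeR adjusted p = 1.87e-09).

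Most inhibitors and feedback targets of NF-kB were lower in ShNC_H2O2, where CXCL8 and CXCL3 were highest and CXCL5 was lowest. Of 19 tested genes, 4 rose and 13 fell with H2O2 (median -0.43, against 0.004 for all genes), and 9 rose and 1 fell in the libraries labelled YAP1 knockdown (median 0.26). Without the 2 libraries of high mitochondrial share these counts were 4 and 14, then 11 and 2. Removing the median shift of each gene's 51 neighbours gave 2 and 9, then 9 and 2. With all 12 libraries 46.6% of all tested genes were called with H2O2 (23.9% higher, 22.6% lower). In the second comparison 43.0% were called (22.0% higher, 21.0% lower). SOD2, mitochondrial superoxide dismutase, was -2.17 ± 0.12 (edgeR adjusted p = 1.43e-09) and then 1.03 ± 0.12 (edgeR adjusted p = 5.12e-06). BIRC3, an apoptosis inhibitor and textbook NF-kB target, was -1.85 ± 0.10 with H2O2 (edgeR adjusted p = 4.1e-10).

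TNFAIP3 (A20, the enzyme that shuts off NF-kB signalling) was 37.2 ± 2.05, 28.1 ± 2.16 and 133 ± 12.1 CPM in ShNC, ShNC_H2O2 and YAP1kd_H2O2, a log2 fold change of 2.24 ± 0.08 in the second step (edgeR adjusted p = 1.5e-11). NFKBIZ, the nuclear cofactor of inflammatory promoters, was -0.54 ± 0.06 and 0.26 ± 0.06, but both directions turned, to 0.05 and -0.15, once the shift of its 51 neighbouring genes was removed.

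**Figure D5:**
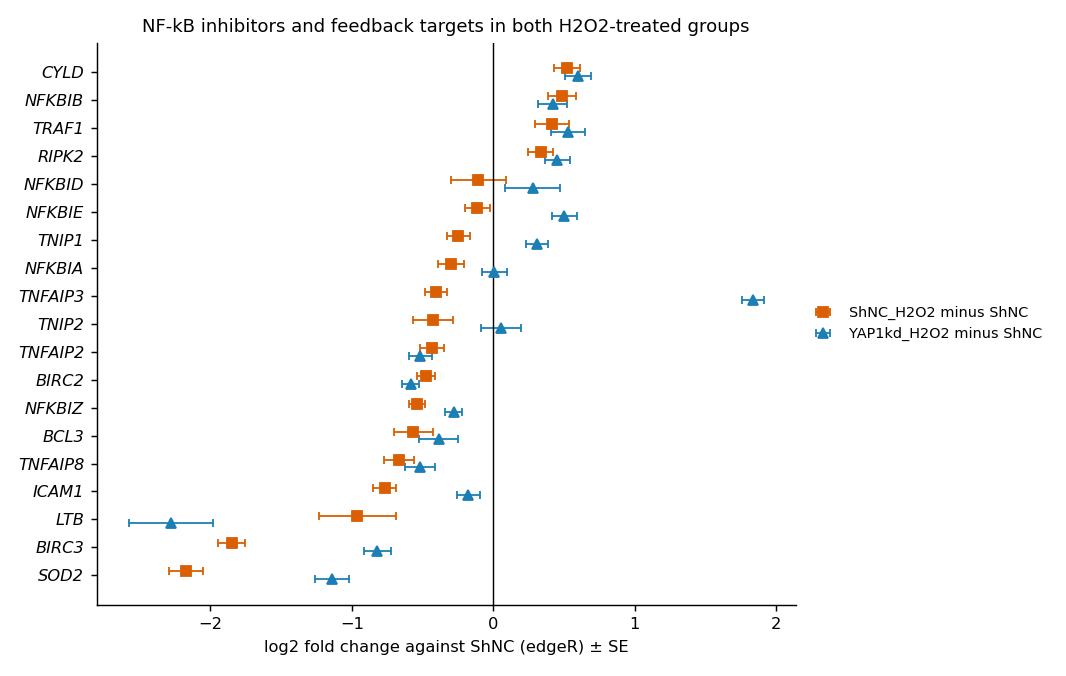
Log2 fold change against ShNC (edgeR, ± SE) of 19 NF-kB inhibitors and feedback targets in ShNC_H2O2 (squares) and YAP1kd_H2O2 (triangles), sorted by the first; both sets share the ShNC libraries. Most squares lie left of 0, and TNFAIP3 stands furthest to the right in YAP1kd_H2O2 at 1.84.

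AP-1 and C/EBP factors, named above as helpers of NF-kB at CXCL8, were split. Of 13 tested, 4 rose and 3 fell with H2O2 (median 0.005), and 2 rose and 4 fell in the libraries labelled YAP1 knockdown against ShNC_H2O2 (median -0.23). Without ShNC replicate 4 the first count was 4 and 5. Over all tested genes 46.6% and 43.0% were called in these comparisons. JUNB (1.27 ± 0.12, edgeR adjusted p = 3.35e-07) and the stress factor ATF3 (1.29 ± 0.10, edgeR adjusted p = 4.35e-08) rose with H2O2, and JUNB was lower in the libraries labelled YAP1 knockdown (-0.96 ± 0.12, edgeR adjusted p = 8.69e-06). CEBPD fell and rose as CXCL5 did, with -1.94 ± 0.12 and 1.15 ± 0.12 (edgeR adjusted p = 3.27e-09 and 1.46e-06). Unlike CXCL5 it remained below ShNC in the libraries labelled YAP1 knockdown (-0.78, edgeR adjusted p = 9.81e-05). CEBPB, the C/EBP factor most tied to senescent cytokine genes, was not called with H2O2 (0.20, edgeR adjusted p = 0.0986; 0.26 and 0.0339 after subtracting its neighbours' median) and was higher in the libraries labelled YAP1 knockdown (0.60, edgeR adjusted p = 8.54e-05).

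Of 19 regulators of AU-rich mRNA decay, 4 rose and 3 fell with H2O2, and 4 rose and 3 fell in the libraries labelled YAP1 knockdown (median 0.04 and -0.004), beside the 46.6% and 43.0% called among all genes. The counts were 8 and 5, then 6 and 8, without both high-mitochondrial libraries, and the second was 5 and 6 without YAP1kd_H2O2 replicate 3 and 4 and 1 without YAP1kd_H2O2 replicate 2. The rises with H2O2 were 2 without ShNC replicate 1 or ShNC_H2O2 replicate 1 or 2. ZFP36 (tristetraprolin) and ZC3H12A (regnase-1), which bind inflammatory messages and promote their decay, were not called in any comparison with all 12 libraries. Without both high-mitochondrial libraries ZFP36 was higher with H2O2 (0.44, edgeR adjusted p = 0.00588) and lower in the next step (-0.51, edgeR adjusted p = 0.00267), and the latter was called without YAP1kd_H2O2 replicate 3 alone (edgeR adjusted p = 0.038). ZC3H12A stood at 73.9 ± 3.62 to 74.8 ± 2.87 CPM. MAPKAPK3, a kinase below p38, rose with H2O2 by 1.07 ± 0.06 (edgeR adjusted p = 8.13e-10).

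Among 29 tested secreted senescence-associated factors outside the chemokines, 15 rose and 6 fell with H2O2 (median 0.32), and 5 rose and 14 fell in the libraries labelled YAP1 knockdown against ShNC_H2O2 (median -0.16). Over all tested genes 46.6% were called with H2O2 (23.9% higher, 22.6% lower) and 43.0% in the second comparison (22.0% higher, 21.0% lower). INHBA, which encodes the activin A subunit, rose by 4.76 ± 0.08 and the collagenase MMP1 by 3.89 ± 0.09 (edgeR adjusted p = 2.45e-15 and 7.04e-14), and both were lower in the libraries labelled YAP1 knockdown. CSF2 (GM-CSF) rose with H2O2 from 6.75 ± 1.1 to 20.4 ± 0.967 CPM (edgeR adjusted p = 3.92e-09) and, unlike CXCL8, was not called in the next step (20.8 ± 0.471 CPM, edgeR adjusted p = 0.825). IL6, often measured beside CXCL8, went from 115 ± 28.1 to 40.2 ± 1.14 CPM with H2O2 (-1.52 ± 0.14, edgeR adjusted p = 3.48e-07) and stayed at 39.1 ± 5.43. Its value is uncertain, since 20.7% of its exon bases overlap another gene.

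Markers of other cell types were low or followed H2O2. Immune cell markers summed to 1.73 to 2.72 CPM over all libraries, with PTPRC at 2 reads or fewer and MS4A1 at 0, and endothelial markers to 1.45 to 4.65 CPM. The 8 fibroblast and pericyte markers summed to 102 to 114 CPM in ShNC, 246 to 264 CPM in ShNC_H2O2 and 133 to 174 CPM in YAP1kd_H2O2, the order of groups seen for CXCL8. Most of that sum was LUM, while COL1A2 was at 0 and COL3A1 at or below 0.195 CPM in every library. The 11 matched markers of differentiated proximal tubule summed to 282 to 304, 166 to 177 and 289 to 303 CPM, mostly DPP4, in the order of groups seen for CXCL5. Renal epithelial markers summed to 2550 to 2650, 3150 to 3220 and 2530 to 2770 CPM. Their part in the chemokine changes was not tested.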

How the data were processed

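The authors deposited 1 table of raw counts per library, whole numbers of reads per gene, unscaled and unpooled. Per the submitters' processing notes, the tools were HISAT2, featureCounts, Subread and DESeq2, with GRCh38 (hg38). Not given in the sources used here are versions, the annotation release, strand use and how reads matching several places were counted, so reads shared by paralogs or overlapping genes could not be told apart. Libraries were made by oligo(dT) selection, per the labels' protocols.

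Genes were tested with edgeR 4.0.16 (R 4.3.3): filterByExpr by group left 19268 of 40649 genes, libraries were scaled by TMM, and the 12 libraries were fitted together by robust quasi-likelihood, by group without covariates, with Benjamini-Hochberg adjustment over all tested genes. Symbols were found for 40555 identifiers. Values after ± are SD for CPM and ratios, and SE for log2 fold changes. Ratios within a library used log2 CPM with no pseudocount, and permutation tests of levels and likeness used log2(CPM + 0.5). Replicates differed by more than sampling noise (chi-square per degree of freedom of at least 2.96 in every pair), but unevenly. Both high-mitochondrial libraries stood far from their groups. Compared with its fellow replicates, ShNC replicate 4 gave values of 156 to 181. YAP1kd_H2O2 replicate 3 gave 109 to 133 against its own group. No pair free of these libraries exceeded 6.99. On counts simulated for ShNC_H2O2 against ShNC (18929 genes, 200 changed), the model recovered 100% of the tested genes changed by 1 and 100% of those changed by 2 on the log2 scale, and 6.10% of its calls were false. Floors cover counting error only.

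Genes named are the 5 members, tested genes within 1 Mb, a panel of cytokines and NF-kB genes, up to 2 called rises and 2 falls per list and step at a mean of at least 1 CPM, and the 3 genes of at least 5 CPM most like each member. Not all of them are printed. Members, lists and the rule were chosen with earlier results of these data known. Alternatives were other scalings, filters and tools (limma 3.58.1, DESeq2 1.42.0), a replicate block, left-out libraries, pseudocounts of 0.1 and 2 CPM, and removal of the median shift of 51 neighbouring genes, taken for each group against ShNC.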

Additional observations from a re-analysis of the deposited data

Results flagged for a closer look

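None of the 4 tested chemokines had a library beyond the cut for standing apart that is given below. CXCL3 in YAP1kd_H2O2 came close, with replicate 4 at 12.6 CPM and the others at 10.7 to 11.1 CPM. CXCL1, which was not tested, was not among the groups checked. Its YAP1kd_H2O2 replicate 3 held 6 reads (0.172 CPM), against 2 reads in each other library of that group. Among 111 groups of 4 libraries checked over the tested members, panel genes and genes around the cluster, 11 had a highest or lowest library whose gap to the next exceeded 0.829 of the group's range, and chance gives about 1 in 20. Values are CPM.

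YAP1kd_H2O2 replicate 3 was high for 4 genes: TNFAIP3 at 151 (the others 126 to 128), IL6 at 47.2 (36.1 to 36.7), FOSL1 at 347 (170 to 184) and ANKRD17 at 272 (199 to 205). ShNC replicate 4 was high for FOSL1 at 314 (189 to 199) and ANKRD17 at 255 (183 to 184), and low for ENSG00000269559 at 0.143 (0.402 to 0.435). These are the 2 libraries of high mitochondrial share. IL1A was at 0.297 in ShNC replicate 1 (0.962 to 0.981) and AFP at 0.573 in ShNC replicate 2 (0.754 to 0.773). In ShNC_H2O2, TNFAIP3 was at 31.4 in replicate 3 (26.8 to 27.3), and FOSL1 at 169 in replicate 1, just under the others at 171.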

How the results depend on the processing

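Over 23 alternatives per result, every call and direction of CXCL2, CXCL3, CXCL8 and the summed CXCL1, CXCL2 and CXCL3 held in all 3 comparisons, as did CXCL5 in both comparisons with ShNC_H2O2. Removing the shift of neighbouring genes moved CXCL2, CXCL3 and the sum between YAP1kd_H2O2 and ShNC_H2O2 to -0.49, -0.52 and -0.49, over 1.5 times. With the neighbours' median taken directly between these groups, CXCL2 was -0.32 and CXCL3 -0.33, untested. The weakest adjusted p of the calls that held was 0.0271, for CXCL3 between YAP1kd_H2O2 and ShNC_H2O2. CXCL5 between YAP1kd_H2O2 and ShNC crossed the threshold with both libraries of high mitochondrial share left out (0.31, edgeR adjusted p = 0.0199). With single libraries left out it ranged from 0.21 to 0.36, called only without YAP1kd_H2O2 replicate 3, and over all its alternatives adjusted p ranged from 0.0199 to 0.335. The cause was not tested. Counts of called genes stayed within 1.5 times, at 6433 to 11603 between ShNC_H2O2 and ShNC, 6075 to 11194 between YAP1kd_H2O2 and ShNC_H2O2, and 4950 to 9146 between YAP1kd_H2O2 and ShNC. The replicate numbers did not pair the libraries: deviations of same-numbered libraries correlated at -0.50 to 0.46, over 0.1 in 4 of 12 pairs, and 3 of 12 libraries correlated best with their own number. With the replicate block 8536, 7798 and 5731 genes were called, and no member's call changed. Pseudocounts of 0.1 and 2 CPM left each exact permutation p on its side of the threshold. List counts were recomputed as an alternative chosen after seeing the data. Scaling by library size alone moved the decay regulators to 7 and 3 with H2O2. Depth limits CXCL1, at 2 to 8 reads per library.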
